A study of Homo sapiens with 4 samples.

Results

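The genes described here are 4 intestinal transcription factors (CDX1, CDX2, HNF4A and KLF5) and 5 epithelial differentiation markers (VIL1, KRT20, LGALS4, CEACAM5 and TFF3). They were chosen by symbol, 9 of the 26364 rows of the deposited count table, and all 9 symbols were found. RNA sequencing was performed on SW480 and SW620, human CRC cell lines that derive from a primary colon tumor and a later lymph node metastasis of the same patient. Each line was sequenced once after SHMT2 knockdown and once as its control, which gives 4 libraries. SHMT2, the mitochondrial serine hydroxymethyltransferase, was silenced in the study's system by a stably integrated shRNA that doxycycline switches on, in cells kept under puromycin. The controls are named as cells with a control shRNA, and neither their doxycycline treatment nor the hairpin behind the sequenced knockdown is stated. Nothing states whether the libraries came from separate cultures, so p values cover only these libraries, whose spread may be technical. That spread is how far the knockdown effect differs between the lines, shared across genes. A p value therefore does not show whether the lines agree for a given gene.

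CDX1 and CDX2 are homeodomain factors that specify intestinal epithelium, and CDX2 stays on in most colon cancers. HNF4A is a nuclear receptor that maintains enterocyte genes, and KLF5 is a zinc finger factor of proliferating crypt cells. As crypt cells move toward the lumen they take up markers of absorptive or secretory fate. Among these are villin (VIL1), which bundles actin in the brush border, keratin 20 (KRT20) of surface colonocytes, galectin-4 (LGALS4), the adhesion glycoprotein carcinoembryonic antigen (CEACAM5) and trefoil factor 3 (TFF3), a peptide that goblet cells secrete.

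The libraries held 5530129 to 13774288 counts. In SW480 the library of knockdown cells was 0.671 times as deep as its control, and in SW620 it was 2.49 times as deep. Levels are given as CPM, counts scaled to the size of each library with TMM factors. SHMT2 fell from 277 to 30.9 CPM in SW480 and from 688 to 47.6 CPM in SW620 (log2 fold change -3.54, SE, the standard error, 0.12, edgeR quasi-likelihood adjusted p = 1.06e-167). The epithelial markers EPCAM, CDH1, KRT8, KRT18 and KRT19 had at least 557 counts in every library. The more intestinal GPA33 had 2 to 5 counts and CDH17 had 1 and 0 counts in SW480 and 13 and 25 in SW620, so these defining markers were low or absent. Of 20 markers of fibroblasts, leukocytes, endothelium or other epithelia, 12 had at most 3 counts in every library. The others were COL1A1, LUM, PDGFRB, CD14, CD68, VWF, KRT5 and ALB. LUM, a fibroblast marker, had 0 counts in both SW480 libraries and 107 and 313 in SW620. COL1A1 had 203 and 130 counts in SW480 and 35 and 86 in SW620, and CD68 had 104 and 34 against 27 and 61. The summed level of these other markers was 34.8 and 29.1 CPM in the SW480 libraries and 37.2 and 39.9 CPM in the SW620 libraries.

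The first question was whether SHMT2 knockdown changed the intestinal factors and markers. The test covered 14024 genes that reached 10 counts in 2 or more libraries, and an adjusted p under 0.05 was called a change. Of the 9 genes, 5 were tested (CDX2, HNF4A, KLF5, VIL1 and TFF3), and 0 of them changed with the knockdown. For VIL1 and TFF3 this test rests on the SW620 pair alone. Over all genes tested, 1.66% were called by edgeR in this comparison. With no adjustment, at p of 0.05 or less, 0 of the 5 passed edgeR, against 9.06% of all genes. DESeq2 called 0 of them after adjustment, against 0.185% of all genes, giving no adjusted p for CDX2 and TFF3, and 0 without adjustment, against 1.72%. The other 4 genes, CDX1, KRT20, LGALS4 and CEACAM5, had too few counts to be tested. The second question was how the cell lines differ. HNF4A and KLF5 were higher in SW620 and CDX2 was lower. VIL1 and TFF3 were at 0 to 2 counts in SW480 and entered the test only through SW620, so their difference is described without a test. In this comparison 63.6% of all genes tested were called by edgeR and 39.3% by DESeq2, so a call alone sets no gene apart.

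**Figure D1:**
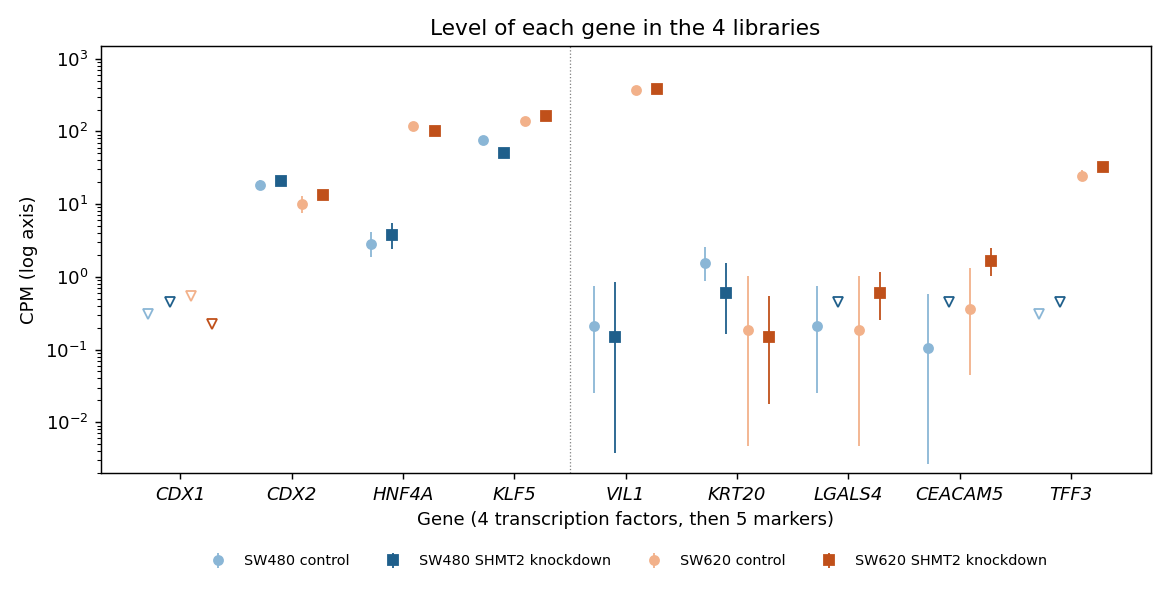
Level of the 9 genes in the 4 libraries, in CPM on a log axis, with 95% counting intervals from the Poisson distribution and open triangles at the limit of 3 counts where a library had 0. VIL1 reached 372 and 379.5 CPM in the SW620 libraries and rested on 1 or 2 counts in SW480, TFF3 was counted in SW620 alone, and CDX1 was at 0 throughout.

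The transcription factors were taken first. CDX1 (chromosome 5, 150166795 to 150184558, plus strand; positions are from GENCODE 29 on GRCh38, while the submitters' processing notes name hg18) had 0 counts in all 4 libraries. The 95% counting interval of a count of 0 reaches up to 0.384 CPM in control and 0.556 CPM in knockdown SW480 cells. In SW620 it reaches up to 0.676 CPM in control and 0.274 CPM in knockdown cells. At this depth CDX1 was not detected in either line, with or without SHMT2 knockdown.

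CDX2 (chromosome 13, 27962137 to 27971139, minus strand) was detected in every library at a low level. Control and knockdown SW480 cells gave 177 and 138 counts (18.4 and 20.8 CPM). The same SW620 libraries gave 54 and 180 counts (9.90 and 13.4 CPM). Both SW480 libraries lay above both SW620 libraries, and the log2 fold change of SW620 against SW480 was -0.75 (SE 0.21, edgeR adjusted p = 0.000871). The DESeq2 Wald test gave an adjusted p of 0.110, so this call depends on the test. The knockdown libraries were the higher in both lines, by 1.13 times in SW480 (95% counting interval 0.897 to 1.42) and 1.35 times in SW620 (0.992 to 1.87). In the joint fit the value was 0.29 on the log2 scale (SE 0.21, interval -0.13 to 0.70, edgeR adjusted p = 0.816), which did not pass the test.

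HNF4A (chromosome 20, 44355700 to 44434596, plus strand) showed the largest difference between the lines among the factors. SW480 had 27 counts in control and 25 in knockdown cells (2.81 and 3.77 CPM). SW620 had 656 and 1377 counts (120.3 and 102 CPM). The SW620 level was 42.8 times that of SW480 in control cells (counting interval 29.1 to 65.4) and 27.1 times in knockdown cells (18.3 to 42.1), and these intervals overlap. The log2 fold change of SW620 against SW480 was 5.11 (SE 0.19, edgeR adjusted p = 6.82e-157). With the knockdown HNF4A had a ratio of 0.851 in SW620 (counting interval 0.775 to 0.935) and 1.34 in SW480 (0.747 to 2.40). The fit over both lines gave a log2 fold change of -0.13 (SE 0.16, interval -0.45 to 0.19, edgeR adjusted p = 0.955). An interval that covers counting error in a single pair of libraries is narrower than the spread between libraries that the test uses.

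RefSeq start-site windows on GRCh38.p14, from 250 bases before to 50 bases after each annotated start, were on hand for 6 of the 9 genes, 8 windows in all. CDX1, VIL1 and TFF3 had none. CDX2, KRT20 and CEACAM5 hold the core letters TTTATT of CDX binding sites, or their reverse complement AATAAA, shown in capitals since CDX2 is among the 9 genes and CDX factors bind such letters. The stretches lie at chr13:27969478-27969507 and chr17:40885460-40885489 on the minus strand and chr19:41708546-41708575 on the plus strand, 180, 235 and 68 bases before their starts.
CDX2: gaagctcttaacAATAAAggtttgaatatt
KRT20: ttcctgtttcctTTTATTacctgtttaatt
CEACAM5: agaggacacctgAATAAAgaccacacccat
These letters occur in 17.4% of 35116 windows. KRT20 also holds the variant TTTATG, found in 10.6% of windows, as CATAAA. The HNF4 letters CAAAGTCCA, found in 0.384% of windows, are in none of the 8, and the HNF4A, LGALS4 and KLF5 windows hold none of these 3 motifs. Both strands were searched, the letters were chosen after the values were seen, and a match is not a binding site.

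KLF5 (chromosome 13, 73054976 to 73077542, plus strand) was the most abundant of the 4 factors in each library. SW480 had 743 counts in control and 336 in knockdown cells (77.4 and 50.7 CPM). SW620 had 750 and 2204 counts (138 and 164 CPM). Both SW620 libraries lay above both SW480 libraries. The log2 fold change of SW620 against SW480 was 1.25 (SE 0.13, edgeR adjusted p = 5.26e-22). The knockdown libraries lay on opposite sides of their controls, with a ratio of 0.655 in SW480 (counting interval 0.574 to 0.746) and 1.19 in SW620 (1.10 to 1.30). The pooled log2 fold change of -0.15 (SE 0.13, interval -0.40 to 0.10, edgeR adjusted p = 0.874) therefore averages values of opposite sign. The difference between the lines in this response was not tested, since 1 library per line and condition leaves no spread to test it against. SW620 exceeded SW480 by 1.78 times in control cells (1.60 to 1.97) and by 3.23 times in knockdown cells (2.88 to 3.64).

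**Figure D2:**
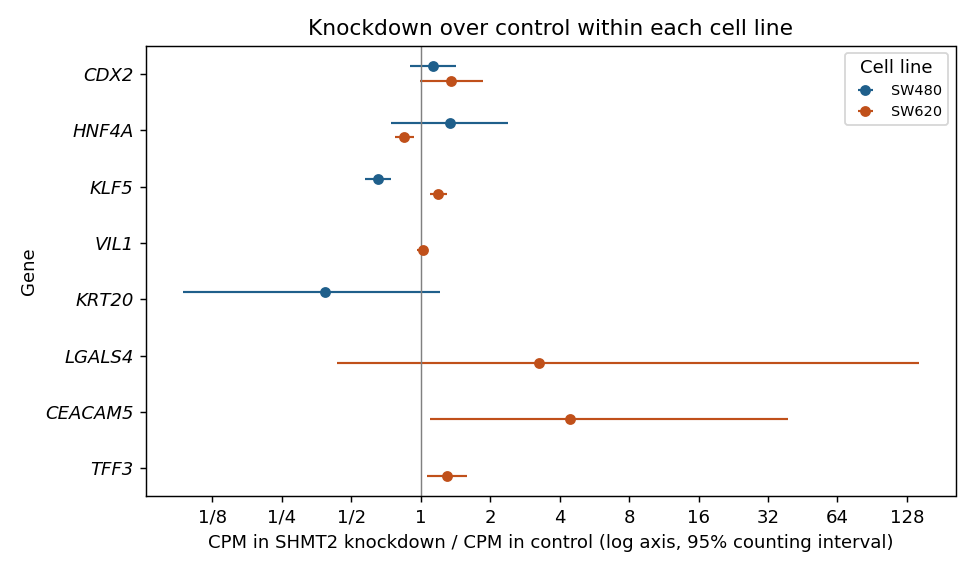
Ratio of CPM in SHMT2-knockdown cells to CPM in control cells within each cell line, on a log axis with 95% counting intervals, for each gene with more than 3 counts in at least 1 library of the pair and a count above 0 in both. Among the genes plotted, KLF5 is the one whose intervals lie below 1 in SW480 and above 1 in SW620, and the intervals of KRT20, LGALS4 and CEACAM5 are wide because they rest on 1 to 22 counts.

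Of the markers, VIL1 (chromosome 2, 218419092 to 218453295, plus strand) was the most abundant in SW620. SW480 had 2 counts in control and 1 in knockdown cells (0.208 and 0.151 CPM). SW620 had 2029 and 5105 counts (372 and 379.5 CPM). The ratio of SW620 to SW480 was 1787 in control cells (counting interval 494 to 14762) and 2516 in knockdown cells (451 to 99398). VIL1 passed the filter on low counts only through SW620, so it had to differ between the lines, and no test is given. With the knockdown it stood at 1.02 times its control in SW620 (0.969 to 1.07), and in SW480 both counts were too low for a ratio. The joint fit gave 0.02 on the log2 scale (SE 0.16, interval -0.29 to 0.33, edgeR adjusted p = 0.995), a value that rests on the SW620 pair alone. Exons of USP37, on the opposite strand, overlap 3045 bases of the VIL1 exons, and the use of strand in counting is not given in the sources used here. USP37 had 442 and 263 counts in the SW480 libraries, where VIL1 had 2 and 1.

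TFF3 (chromosome 21, 42311667 to 42315651, minus strand) was also counted in SW620 alone. It had 0 counts in both SW480 libraries, and 134 counts in control and 430 in knockdown SW620 cells, or 24.6 and 31.97 CPM. Set against the limit of 3 counts per library, the SW620 level was 78.7-fold higher in control cells and 70.6-fold higher in knockdown cells. These values leave out counting error, so they are not strict lower bounds. TFF3 passed the filter only through SW620, so no test between the lines is given. In SW620 the knockdown library was 1.30 times its control (counting interval 1.07 to 1.59), and the fit gave a log2 fold change of 0.38 (SE 0.27, interval -0.16 to 0.92, edgeR adjusted p = 0.807), which did not pass the test. With 0 counts in SW480, this fit rests on the SW620 pair alone.

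KRT20 (chromosome 17, 40875941 to 40885227, minus strand) had its highest value in control SW480 cells, the line that lacked VIL1 and TFF3. It had 15 counts in control and 4 in knockdown SW480 cells, or 1.56 and 0.603 CPM, and 1 and 2 counts in SW620, or 0.183 and 0.149 CPM. The ratio of SW620 to SW480 was 0.117 in control cells (counting interval 0.00279 to 0.763) and 0.246 in knockdown cells (0.0223 to 1.72). The ratio with the knockdown in SW480 was 0.386 (0.0933 to 1.21). A change with the knockdown was not detectable at this depth.

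CEACAM5 (chromosome 19, 41708585 to 41729798, plus strand) had 1 and 0 counts in control and knockdown SW480 cells. In SW620 it had 2 counts in control and 22 in knockdown cells, or 0.367 and 1.64 CPM. This ratio was 4.46 (counting interval 1.10 to 39.1), with a library 2.49 times as deep on the knockdown side. LGALS4 (chromosome 19, 38801671 to 38813364, minus strand) had 2 and 0 counts in SW480 and 1 and 8 counts in SW620, and its ratio in SW620 was 3.24 (0.435 to 144). CEACAM6, a close paralog of CEACAM5 chosen after its values were seen, had 0 and 0 counts in SW480 and 1 and 15 in SW620. CEACAM1, a better counted gene of the same family, had 85 and 197 counts in SW620. Its level there was 15.6 CPM in control and 14.6 CPM in knockdown cells, so it did not rise. Reads of such paralogs could be split between them in counting. With every gene that had a count in the fit, the log2 fold change of CEACAM5 with the knockdown was 1.58 (edgeR adjusted p = 0.989), so it did not pass the knockdown test. Between the lines the same fit gave a log2 fold change of 3.61 for CEACAM5, a value that rests mainly on the 22 counts in knockdown SW620 cells. The control libraries had 1 count in SW480 and 2 in SW620, so no test between the lines is given.

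Levels of different genes were compared per kilobase of annotated exon. In control SW620 cells the order was VIL1 (53.8 CPM per kb), KLF5 (35.3), TFF3 (21.0), HNF4A (16.5) and CDX2 (2.40), and the other 4 genes were below 0.11 CPM per kb. In control SW480 cells KLF5 led with 19.9 CPM per kb, followed by CDX2 (4.47), KRT20 (0.846) and HNF4A (0.385), and the other 5 rested on 0 to 2 counts, so their order is not resolved. The exon length of each gene, HNF4A among them, covers all of its annotated transcripts, which can lower its value per kb.

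**Figure D3:**
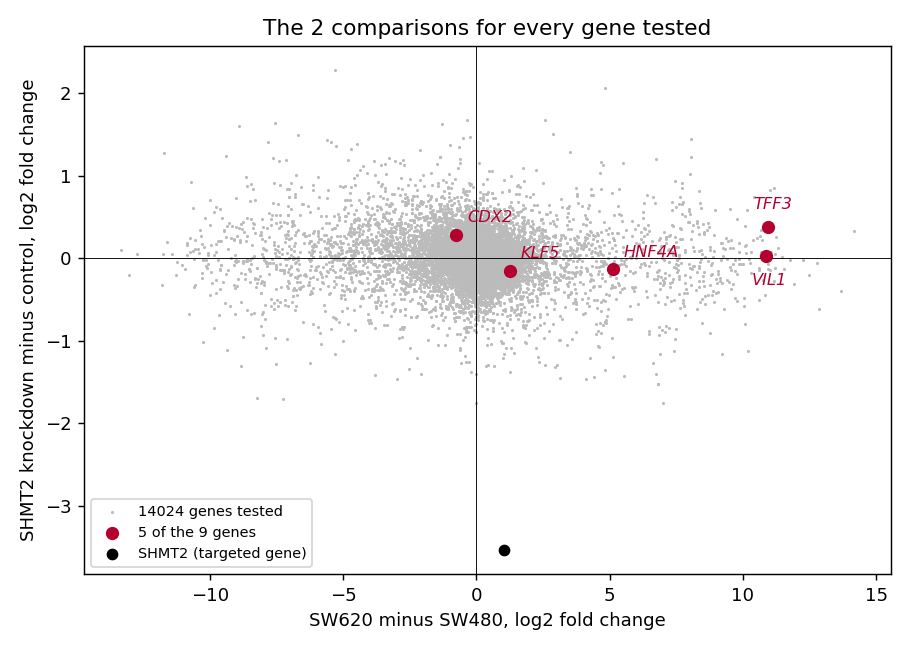
Log2 fold change with SHMT2 knockdown (vertical) against log2 fold change of SW620 over SW480 (horizontal) for 14024 genes tested. CDX2, KLF5 and HNF4A lie at -0.75, 1.25 and 5.11 on the horizontal axis, the positions of VIL1 and TFF3 there rest on 0 to 2 counts in SW480 and measure no fold, and all 5 lie between -0.15 and 0.38 on the vertical axis, where SHMT2 is at -3.54.

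Other genes of the intestinal program were examined in 5 lists with 110 genes, which include the 9 genes above. Of these, 50 were tested and 38 had at most 3 counts in every library, among them ALPI, SI, FABP1, APOA1, APOA4, CA1 and CEACAM7 of mature enterocytes and ATOH1, the factor that sets secretory fate. Between the lines, the list of 26 intestinal transcription factors had 21 genes tested, of which 8 were lower and 10 higher in SW620. Over all genes tested, 31.3% were lower and 32.3% higher by edgeR. The median log2 fold change of the list was -0.09, against 0.01 for all genes. SOX9, a factor of crypt progenitors and the most abundant gene of the list, had 182 and 167 CPM in SW480 and 177 and 152 CPM in SW620. EHF, an epithelial ETS factor, was higher in SW620, with 116 and 156 CPM against 58.1 and 64.4 CPM (log2 fold change 1.14, SE 0.13, edgeR adjusted p = 2.77e-18).

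Several factors differed between the lines in opposite directions, and those given next were chosen after their values were seen. FOXA2, a pioneer factor of endoderm, had 10 and 7 counts in SW480 and 381 and 830 in SW620. ISX, an intestine-specific homeobox factor, had 0 counts in SW480 and 95 and 157 in SW620. In the other direction, FOXA1, a paralog of FOXA2, had 33 and 22 counts in SW480 and 0 and 0 in SW620. NR5A2, a crypt nuclear receptor, had 85 and 23 counts in SW480 and 0 and 1 in SW620. FOXA1 was thus detected in SW480 alone, at a low level, and FOXA2 was much the higher in SW620.

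Of the 35 brush border and enterocyte genes, 11 were tested, and 4 were lower and 6 higher in SW620 (median log2 fold change 0.50, against 0.01 for all genes). For this list and the goblet cell list, the shares over all genes tested were 31.3% lower and 32.3% higher by edgeR. EZR, ezrin, which ties actin to the membrane, had 2691 and 1639 CPM in SW480 but 262 and 256 CPM in SW620, the opposite of VIL1. EPS8 was higher in SW620, with 120 and 121 CPM against 60.7 and 48.7 CPM, and PLS1, another actin bundler of microvilli, had 73.7 and 103 CPM against 72.4 and 68.8 CPM. Of the 20 goblet cell and mucin genes, 7 were tested, and 2 were lower and 5 higher in SW620 (median 4.21). MUC1 had 28.4 and 32.6 CPM in SW620 and 1.25 and 2.11 CPM in SW480, and MUC13 had 86 and 187 counts in SW620 and 1 in each SW480 library. MUC2, the main secreted goblet mucin, had 9 and 0 counts in SW480 and 1 and 7 in SW620. MUC13, TFF2 and other list genes passed the filter only through the line where they are high, so the counts and medians between lines are descriptions.

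Of the 16 surface and adhesion markers, 9 were tested, and 3 were lower and 4 higher in SW620 (median 0.10). The shares over all genes tested were 31.3% lower and 32.3% higher by edgeR. EPCAM was higher in SW620, with 463 and 444 CPM against 260 and 276 CPM. CLDN7, a claudin of tight junctions, had 158 and 154 CPM in SW480 but 2.02 and 2.16 CPM in SW620, and CLDN4 had 184 and 203 CPM against 108 and 158 CPM. Of the 13 enteroendocrine genes, 2 were tested, CHGB, which was counted in SW620 with 80 and 237 counts against 1 and 0, and SCG2, which had 144 and 232 counts in SW480 and 1 and 21 in SW620. SCG5 had 17 and 5 counts in SW480 and 5 and 5 in SW620, and ISL1 had 18 and 1 against 1 and 0. Over all 5 lists, 7 genes had at least 10 counts in both SW620 libraries and at most 3 in both SW480 libraries (ISX, VIL1, TFF3, TFF2, MUC13, CDH17 and CHGB). The reverse held for 4 genes, NR5A2, FOXA1 and MUC4 among them. Among all genes tested, 451 (3.22%) were counted in SW620 alone by this rule and 552 (3.94%) in SW480 alone.

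**Figure D4:**
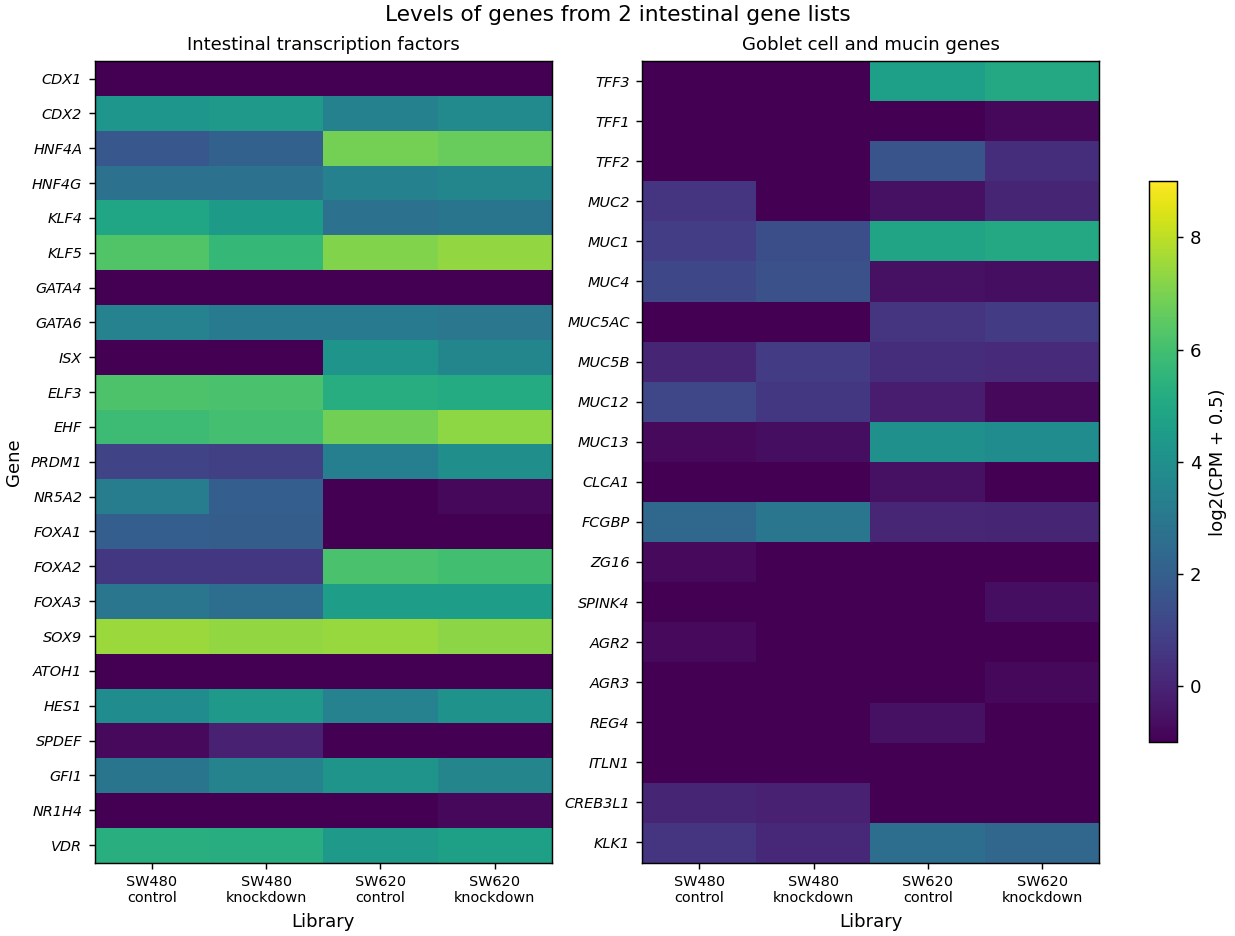
Levels of genes from the intestinal transcription factor list, some of which are not shown, and of 20 goblet cell and mucin genes in the 4 libraries, as log2(CPM + 0.5). The columns of each cell line resemble each other, with HNF4A, FOXA2, ISX, TFF3, MUC1 and MUC13 bright in SW620 and NR5A2, FOXA1 and FCGBP brighter in SW480.

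With SHMT2 knockdown, few of these list genes passed the test. Among the 21 factors tested, 0 were lower and 0 higher by edgeR, with 1 lower (4.91% of all genes tested) and 2 higher (4.15%) before adjustment, and 0 called by DESeq2 after adjustment. The median log2 fold change of the factors was -0.10, against 0.01 for all genes. SOX9 had a log2 fold change of -0.17 (adjusted p = 0.770) and EHF of 0.29 (adjusted p = 0.347) from edgeR. In the brush border list 1 of 11 was lower and 0 were higher, in the goblet cell list 0 of 7 changed in either direction by edgeR with 1 lower before adjustment, in the surface list 1 of 9 was higher, and in the enteroendocrine list 1 of 2 was higher. The medians of these lists were 0.02, 0.28, 0.07 and 0.78. Over all genes tested, 1.17% were lower and 0.492% higher by edgeR.

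The gene that fell was EZR, with a log2 fold change of -0.38 (SE 0.09, edgeR adjusted p = 0.00437). The fall was in SW480, where the ratio was 0.609 (counting interval 0.596 to 0.623), while in SW620 it was 0.979 (0.920 to 1.04). Without SW480 the log2 value was -0.03, so this call rests on that line. CDH1, E-cadherin, rose in both lines, by 1.30 times in SW480 (1.19 to 1.43) and 1.42 times in SW620 (1.30 to 1.57), with a log2 fold change of 0.45 (SE 0.12, edgeR adjusted p = 0.0210). SCG2, secretogranin II of secretory granules, rose by 2.33 times in SW480 (1.89 to 2.89), and in SW620 it went from 1 to 21 counts (joint log2 value 1.33, SE 0.28, edgeR adjusted p = 0.000526). The adjusted p from DESeq2 was 1.00 for EZR and 0.420 for CDH1, and DESeq2 gave none for SCG2. The epithelial keratins KRT8 and KRT18, outside the lists, fell by 0.34 on the log2 scale each (adjusted p = 0.00406 and 0.00537 from edgeR). Their fall was larger in SW480, with ratios of 0.728 and 0.693, than in SW620, with 0.863 and 0.896. KRT19, the other keratin among those markers, had a log2 fold change of 0.00 (edgeR adjusted p = 0.999).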

How the data were processed

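Illumina TruSeq RNA libraries of both lines, with and without SHMT2 knockdown, were sequenced. The values that the authors deposited are unnormalized read counts, 1 row a gene symbol, in a single table. The paper's methods name an Agilent platform, while the labels and the whole-number values are those of sequencing. The submitters' processing notes name Bowtie 0.12.2 and hg18. Counting program, gene annotation and strand setting are not given in the sources used here, so reads of overlapping genes and close paralogs could mix. In 28 rows symbols had become dates, 0.217% of all counts, and these were kept.

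Genes that reached 10 counts in 2 or more libraries were fitted with edgeR 4.0.16 in R 4.3.3 (TMM, quasi-likelihood test, terms for cell line and treatment, two-sided, Benjamini-Hochberg over 14024 genes). This leaves 1 residual degree of freedom, so p values rest on a dispersion shared across genes. Cell line pairs the libraries: after each condition's mean was taken off, both libraries of a line deviated together (Pearson r = 0.961 across genes, which are not independent replicates). Standard errors are the size of the log2 fold change over the square root of its F, and intervals are 95% normal intervals. Within a line, log2 values used a prior count of 2, and ratios have exact binomial 95% intervals (scipy 1.17.1), which cover counting error only. DESeq2 1.42.0 was the alternative test. On simulated counts of 13989 genes with 2-fold changes, edgeR recovered 90.5% of 200 changed genes for the knockdown and 92.0% for the cell line, with 11 and 13 unchanged genes called. DESeq2 recovered 54.0% and 60.0%, with 0 unchanged genes called. The simulation used a dispersion of 0.01 and the same knockdown effect in both lines, which differed only in the changed genes. Its rates hold for that setting, and they were not measured for smaller changes or for effects that differ between the lines.

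The genes and lists were chosen with earlier results of these data known. Named list genes are those called with the knockdown and up to 3 more per list with the highest mean CPM. Alternatives were other scalings, filters, tests, thinning to 5530129 counts, models without the pairing term, an unadjusted threshold, and each line or condition left out. Some genes of the lists count in the totals and are not reported here.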

Additional observations from a re-analysis of the deposited data

Results flagged for a closer look

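Of the 110 genes in the lists, 44 had a ratio of knockdown to control in both cell lines, and for KLF5 and GFI1 the counting intervals lay on opposite sides of no change in SW480 and SW620. These 2 are 4.55% of the 44, and 523 (3.73%) of all 14024 genes tested met the same rule. The second share also counts genes without a ratio in both lines in its base, so the 2 shares are not directly comparable. For KLF5 the log2 ratio was -0.61 in SW480 cells but 0.25 in SW620 cells, which is 0.86 apart. GFI1, a zinc finger factor of secretory progenitors, had 66 and 70 counts in control and knockdown SW480 cells and 97 and 151 in SW620. Its ratio was 1.54 in SW480 (1.08 to 2.18) and 0.631 in SW620 (0.486 to 0.823), a log2 value of SW620 minus SW480 of -1.28. Neither difference was tested, since each line has 1 library per condition, and the library of knockdown cells was shallower than its control in SW480 and deeper in SW620.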

How the results depend on the processing

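With SHMT2 knockdown, 0 of the 9 genes were called under every alternative run, and each of the 5 tested genes kept its direction under the 7 refits, with adjusted p values, where given, from 0.768 to 1.00. With either line left out, direction was less stable. The log2 values in SW480 and SW620 alone were 0.40 and -0.23 for HNF4A, -0.61 and 0.25 for KLF5, and 0.17 and 0.43 for CDX2. VIL1 and TFF3 had too few counts in SW480 for a direction there. All genes called lower and higher with the knockdown were 164 and 69, against 0 and 0 without the replicate block, 88 and 37 with total counts, 54 and 15 with 50 counts, 21 and 5 with DESeq2 and 28 and 5 after thinning, and between the lines 4394 and 4532 against 2826 and 2680 with DESeq2. Between the lines, HNF4A and KLF5 kept direction and call under those refits, and CDX2 kept its direction and lost its call with DESeq2. In the lists, the count of genes lower with the knockdown was 1, but 0 without the replicate block (no cell line term), with scaling by total counts, with a minimum of 50 counts, with DESeq2 and after thinning, and 3 at the unadjusted threshold. The count of higher genes was 2, but 1 with scaling by total counts or no filter, 0 without the replicate block, with 50 counts, with DESeq2 and after thinning, and 6 at the unadjusted threshold. SHMT2 had a log2 fold change of -3.62 without the replicate block (adjusted p = 1.00), and -3.15 and -3.85 with either line left out. EPCAM, at 0.01, turned to -0.00614 without the replicate block and to -0.00163 without a filter, and CLDN7, at -0.02, turned to 0.0119 with scaling by total counts. The causes were not tested. Low counts limit CDX1, KRT20, LGALS4 and CEACAM5, and 1 library per line and condition limits every result.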

Other observations

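The genes whose levels followed those of CDX2 most closely over the 4 libraries were LDLRAD3, CCDC71L and ECE1. Likeness was the Euclidean distance between log2 CPM values centred on each gene's mean, over 10186 genes with a mean of at least 10 CPM, and these distances were 0.0542, 0.0588 and 0.0644. ECE1 had 178 and 200 CPM in SW480 and 102 and 134 CPM in SW620. For VIL1, the most abundant of the 9 genes by mean CPM, the nearest genes were TGFBI, GJB1 and ROBO1, at distances of 0.350, 0.404 and 0.418. TGFBI had 0.104 and 0 CPM in SW480 and 211 and 215 CPM in SW620. GJB1, a gap junction protein, was at 0 CPM in both SW480 libraries and at 205 and 156 CPM in SW620. With 4 libraries many genes share such a pattern, and the distances describe these libraries.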
